A study of Mus musculus with 53 samples.

Results

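The change with time in culture was measured in macrophages that lack Stat6, as the difference between the 4 Stat6KO libraries taken at 24 h and the 6 taken at 0 h and 1 h. These 10 libraries, of 53 in the series, were chosen by their genotype and time labels alone. The series asked how IL-4 changes RNA levels over time in bone marrow-derived macrophages (BMDMs) of WT and Stat6-/- mice. BMDMs are macrophages grown from bone marrow cells, here for 6 days with supernatant of L929 cells as the source of M-CSF, the growth factor that drives macrophage differentiation. All mice were 8 to 12 weeks old and on a C57BL/6 background, and the Stat6KO animals lacked Stat6 in the whole body.

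The late group held the Stat6KO 24 h control (no IL-4, 2 libraries) and Stat6KO 24 h with IL-4 at 20 ng/ml (2 libraries). The early group held the Stat6KO 0 h control, the 1 h control and 1 h with IL-4 at 20 ng/ml, with 2 libraries each. Each of the 5 groups had a replicate 1 and a replicate 2. The study describes its RNA-seq samples as individual animals, so libraries of one replicate number may come from the cells of one mouse, and the 10 libraries then rest on 2 cultures followed over time. The p-values measure the spread among these libraries only. Control libraries of WT macrophages at 0 h, 1 h and 24 h, 4 of each, gave the same time span in the other genotype.

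IL-4 acts on macrophages through its receptor and the transcription factor STAT6, so cells without STAT6 lack the main route from IL-4 to the genome. Macrophages in culture also hold programmes that do not need IL-4. Type I interferon, made at a low level by macrophages themselves, acts through its receptor and STAT proteins on interferon-stimulated genes (ISGs), whose products block viruses. Sterol supply sets the activity of SREBP2, which drives the genes of cholesterol synthesis and uptake, while the oxysterol receptors LXR drive genes of cholesterol export. M-CSF keeps BMDMs alive and dividing.

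Stat6, at chr10:127642986-127660987 on mm10, lay between 14.3 and 24.0 FPKM (fragments mapped to a gene, set against its transcript length and the depth of the library) in the 18 Stat6KO libraries of the series and between 70.8 and 90.6 FPKM in the 12 WT control libraries, so the labels and the transcript went together. The part of the transcript that the knockout allele removes was not given in the sources used here. Within the Stat6KO libraries Stat6 did not pass the test for time, with a log2 difference of 0.06 (SE 0.08, adjusted p = 0.598). The deepest of the 10 libraries held 2.13 times as many fragments as the shallowest, as judged from the FPKM of single fragments at low loci, and between 10192 and 10323 loci reached 1 FPKM in each. The 14 macrophage markers summed to 18171 to 27315 FPKM in the early libraries and 19537 to 24016 FPKM at 24 h. The 9 neutrophil markers in the table summed to 771 to 1105 FPKM early and 621 to 904 FPKM at 24 h. Of these markers 4 were lower at an adjusted p under 0.05 (17.6% of all loci), with none at 2-fold. Their part in the results was not tested. The summed markers of mast cells, dendritic cells, lymphocytes, erythroid and stromal cells were at or below 14.1 FPKM per list in every library. The lymphocyte sum was 7.8 to 8.46 FPKM early and 3.62 to 5.42 FPKM late in replicate 1. In replicate 2 it was 7.34 to 8.28 FPKM early and 10.8 to 14.1 FPKM late. The dendritic sum was 2.36 to 3.09 FPKM early and 3.01 to 4.82 FPKM late in replicate 1, and 4.14 to 5.68 and 7.75 to 8.82 FPKM in replicate 2.

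Replicate 1 and replicate 2 stood apart. Across tested loci, libraries of the same number and period correlated at r = 0.988 to 0.996, libraries of the same number at 24 h against early at 0.963 to 0.985, and libraries of different numbers at 0.93 to 0.975. Replicate 2 was higher than replicate 1 at 269 loci (2.49%) and lower at 150 (1.39%), together 3.88% of loci, by the same rule as used for time. Each time difference was therefore taken with the replicate number as a factor, and the change within each replicate is given for the main genes described in which one of them was under the 2-fold limit.

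Of 10798 loci that reached 1 FPKM in any of the 10 libraries, 15 were higher at 24 h (0.139%) and 79 were lower (0.732%), together 0.871%, at a Benjamini-Hochberg adjusted p under 0.05 in limma and an absolute log2 difference of at least 1. Differences are on the log2(FPKM + 1) scale throughout, late minus early, which understates the change of low genes. By adjusted p alone 1226 loci were higher (11.4%) and 1905 lower (17.6%), together 29% of loci, so most time changes were smaller than 2-fold. The median log2 difference over all tested loci was -0.02. The 94 called loci had the same sign within both replicates, in the control libraries and in the IL-4 libraries. The late and early libraries did not overlap within either replicate number at 14 of the 15 higher and 77 of the 79 lower loci, against 9.67% and 15.8% of all tested loci. Over all 10 libraries together, 5 of the 15 and 19 of the 79 had no overlap (4.16% and 6.74% of all tested loci). The 94 loci were chosen from these same libraries with the replicate number in the model. Their signs and lack of overlap follow in part from that choice and are no separate support. The difference between the replicates ran against the change with time in most of these genes. Of the 79 lower genes, 59 were also called higher in replicate 2 than in replicate 1 by the same 2-fold rule (2.49% of all loci). Of the 15 higher genes, 10 were called lower in replicate 2 (1.39% of all loci). With the replicate number left out of the model 22 loci were called, and 13 of the called genes named below were not (Cfb, Isg15, Ccl7, Oasl1, Cxcl10, Mx1, Ifit2, Cxcl9, C3, Ccl4, Egr1, Fcgr1 and Atp6v0d2, adjusted p = 0.11 to 0.428).

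The ISGs fell together. Of the 23 measured, 16 were called lower and 22 were lower at an adjusted p under 0.05, with none higher, against 0.732% and 17.6% of all loci. The median log2 difference of the list was -1.13. The other 7 included the signalling gene Stat2 (log2 difference -0.82) and the RNA sensors Ddx58 and Ifih1 (-0.57 each). Oas2, which makes the second messenger 2-5A on sensing double-stranded RNA, was the member that did not pass (-0.20, adjusted p = 0.319). In bulk RNA a smaller number of cells of one kind and less RNA in each cell cannot be told apart.

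Isg15, a ubiquitin-like modifier, was at 21.4 and 55.9 FPKM in the 24 h control libraries (replicates 1 and 2) and at 20.6 and 73.0 FPKM with IL-4, against a lowest, median and highest value of 44.6, 199 and 364 FPKM in the 6 early libraries. Late replicate 2 overlapped early replicate 1, but within each number both late libraries were below the early ones. The log2 difference was -1.89 (SE 0.21, adjusted p = 0.000394), with -1.37 within replicate 1 and -2.41 within replicate 2. The RNA-binding antiviral protein Ifit2 stood at 9.64 and 55.0 FPKM in the late controls and at 9.65 and 76.5 FPKM with IL-4, against 24.6, 123 and 244 FPKM early, a log2 difference of -1.66 (SE 0.14, adjusted p = 7.8e-05). Mx1, a GTPase that restricts viruses, was at 5.75 and 27.4 FPKM and at 5.88 and 37.2 FPKM late, against 17.3, 60.1 and 124 FPKM early, and fell by 1.66 (SE 0.10, adjusted p = 1.91e-05). In both genes replicate 2 was above replicate 1 at both periods, as for Isg15. Ifit2 changed by -1.54 within replicate 1 and -1.78 within replicate 2 and Mx1 by -1.59 and -1.73, whereas the 2 falls of Isg15 differed from each other (adjusted p = 0.0124). Part of the Mx1 sequence is shared with Mx2 (3.91% of its 50-base words), so their reads may be mixed.

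Oasl1, a member of the oligoadenylate synthetase family, was at 3.12 and 16.1 FPKM in the late controls and 2.97 and 18.1 FPKM with IL-4, against 8.02, 39.8 and 75.4 FPKM early, with a log2 difference of -1.70 (SE 0.14, adjusted p = 7.8e-05). The chemokine Cxcl10, which draws T cells, was at 3.47 and 4.99 FPKM and at 3.96 and 10.6 FPKM late, against 6.73, 18.5 and 73.6 FPKM early, with a difference of -1.68 (SE 0.36, adjusted p = 0.00831). Its highest early value, 73.6 FPKM, came from 1 library, 1 h IL-4 replicate 2, and the next was 30.1 FPKM. Irf7, the transcription factor that amplifies interferon production, was at 51.2 and 383 FPKM and at 59.1 and 419 FPKM late, against 138, 724 and 1242 FPKM early, and changed by -1.61 (adjusted p = 0.000111). For none of the 23 ISGs did the late libraries lie below all 6 early libraries, whereas 22 had no overlap within either replicate number. All 23 were higher in replicate 2 than in replicate 1, by 1.10 (Oas2) to 3.20 (Ifi44) on the log2 scale. The summed ISG level showed the size of this gap, at 1569 to 2170 FPKM early and 628 to 724 FPKM late in replicate 1, and at 5581 to 6114 FPKM early and 2810 to 2942 FPKM late in replicate 2. The fall was a median of -1.11 within replicate 1 and -1.30 within replicate 2. With the replicate number left out of the model, none of the 23 was called.

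The bases before the start of 3 of the called ISGs are shown because the interferon-stimulated response element (ISRE), the site bound by interferon-activated complexes and by IRFs, was looked for in them. The sequences are from RefSeq on GRCm38.p6, 220 bases upstream of the annotated start on the gene's strand, and capitals mark each match to GAAANNGAAA or to its other strand TTTCNNTTTC (overlapping matches run together).
Isg15, chr4:156200819-156201038, minus strand: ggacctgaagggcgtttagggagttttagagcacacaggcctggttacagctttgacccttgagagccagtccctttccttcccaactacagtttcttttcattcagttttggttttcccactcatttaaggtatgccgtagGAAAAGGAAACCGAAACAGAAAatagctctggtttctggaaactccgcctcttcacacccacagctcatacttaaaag
Oasl1, chr5:114923020-114923239, plus strand: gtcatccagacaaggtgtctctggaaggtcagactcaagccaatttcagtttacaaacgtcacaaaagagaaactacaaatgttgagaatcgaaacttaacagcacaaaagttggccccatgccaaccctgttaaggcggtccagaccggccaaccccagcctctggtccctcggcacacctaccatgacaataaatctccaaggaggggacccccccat
Cxcl10, chr5:92348890-92349109, minus strand: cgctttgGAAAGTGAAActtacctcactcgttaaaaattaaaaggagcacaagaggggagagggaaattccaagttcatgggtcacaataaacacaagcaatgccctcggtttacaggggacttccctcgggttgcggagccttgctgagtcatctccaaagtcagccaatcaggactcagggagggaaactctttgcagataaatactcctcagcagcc
Isg15 holds 3 overlapping matches that end 68, 62 and 56 bases before the start, Cxcl10 holds 1 that ends 203 bases before it, and Oasl1 holds none in this window. Within 250 bases upstream, 6 of the 12 called ISGs with a RefSeq promoter entry had a match (50%; Ifit1, Ifit3, Isg15, Oas3, Rsad2 and Cxcl10), as did 936 of 27025 genes overall (3.46%). A match is a description of letters and no measure of binding. Mx1, Mx2, Ifi27l2a and Usp18 were not among the entries.

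**Figure D1:**
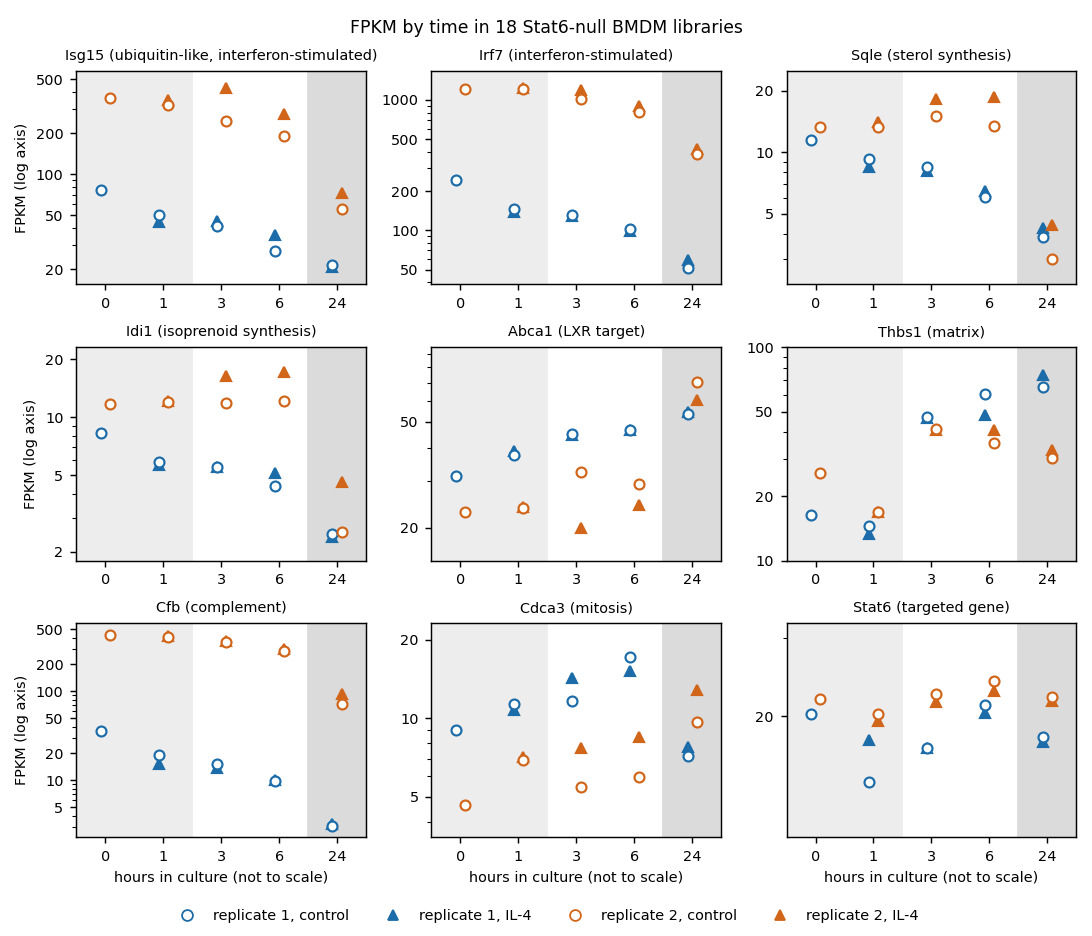
FPKM (log axis) of 9 genes in the 18 Stat6KO libraries by hours in culture, with circles for controls, triangles for IL-4, blue for replicate 1 and orange for replicate 2, and the early and 24 h libraries shaded. Isg15, Irf7 and Cfb fell in both replicates from different levels, Sqle and Idi1 fell at 24 h to below every early library, Abca1 and Thbs1 rose, Cdca3 ran in opposite directions in the replicates, and Stat6 lay between 14.3 and 24.0 FPKM.

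The genes of cholesterol synthesis and uptake formed the other large group that fell. Of 24 measured, 7 were called lower and 23 were lower at an adjusted p under 0.05, against 0.732% and 17.6% of all loci, with none higher and a median log2 difference of -0.71. In 21 of them all 4 late libraries lay below all 6 early libraries (6.74% of all tested loci), and 23 had no overlap within either replicate number. The summed level of the list was 222 to 367 FPKM early and 148 to 174 FPKM at 24 h.

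Sqle, the epoxidase that makes the precursor of the sterol rings, was at 3.84 and 3.01 FPKM in the 24 h controls and at 4.27 and 4.42 FPKM with IL-4, against 8.43, 12.4 and 14.1 FPKM early (-1.36, SE 0.13, adjusted p = 0.000184). Idi1, an isomerase of the isoprenoid steps, was at 2.46 and 2.53 FPKM and at 2.39 and 4.58 FPKM late, against 5.65, 9.97 and 12.2 FPKM early (-1.34, SE 0.14, adjusted p = 0.000304). For both genes the late values were below the whole early range. Insig1, the sterol-sensing protein that holds SREBP in the endoplasmic reticulum, was at 7.36 and 6.08 FPKM and at 7.64 and 8.48 FPKM late, against 13.2, 16.9 and 24.9 FPKM early (-1.2, SE 0.14, adjusted p = 0.000515). The farnesyl diphosphate synthase Fdps and the lanosterol demethylase Cyp51 each fell by 1.06, and Srebf2, which encodes SREBP2, was lower by less than the 2-fold limit (-0.88, adjusted p = 0.000387). Idi1 shares 17.7% of its 50-base words with other genes, so its level is less certain. Insig1 changed by -0.92 within replicate 1 and -1.48 within replicate 2, and against 0 h alone it was under the 2-fold limit (-0.96). The number of called sterol genes was 4 within replicate 1 alone, 12 within replicate 2 alone and 7 without the replicate factor. Of all loci, 89, 173 and 17 were called lower in these settings. In 12 of the 24 the change differed between the replicates at an adjusted p under 0.05. Such differences were common, since 2437 of all 10798 loci had a higher change in replicate 2 by that rule and 1726 a lower one.

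The same upstream windows of 3 called sterol genes are shown with the CCAAT box, bound by NF-Y, in capitals (CCAAT or its other strand ATTGG).
Idi1, chr13:8885386-8885605, plus strand: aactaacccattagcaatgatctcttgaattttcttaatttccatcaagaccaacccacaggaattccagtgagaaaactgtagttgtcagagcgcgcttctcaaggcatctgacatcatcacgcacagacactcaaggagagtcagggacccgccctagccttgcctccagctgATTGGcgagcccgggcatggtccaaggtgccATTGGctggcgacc
Insig1, chr5:28071192-28071411, plus strand: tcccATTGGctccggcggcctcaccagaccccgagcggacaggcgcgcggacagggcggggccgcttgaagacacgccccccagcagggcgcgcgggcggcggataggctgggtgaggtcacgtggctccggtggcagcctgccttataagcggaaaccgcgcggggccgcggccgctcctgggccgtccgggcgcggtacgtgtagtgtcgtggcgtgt
Cyp51, chr5:4104698-4104917, minus strand: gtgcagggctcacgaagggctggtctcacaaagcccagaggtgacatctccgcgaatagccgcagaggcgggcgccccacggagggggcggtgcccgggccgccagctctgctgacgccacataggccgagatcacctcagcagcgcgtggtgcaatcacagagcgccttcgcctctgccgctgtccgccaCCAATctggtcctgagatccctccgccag
Idi1 holds a match that ends 40 and another that ends 9 bases before the start, Insig1 holds 1 at 211 bases and Cyp51 holds 1 at 24 bases. Within 250 bases upstream, 15 of 16 sterol genes with an entry had a CCAAT box (93.8%), against 37.5% of all genes with an entry and 5 of the 12 called ISGs. The sterol response element, searched as TCACNCCAC or GTGGNGTGA, was in 1 of the 16 (Hmgcs1) and in 1.22% of all. Sqle and Fdps were not among the entries.

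Abca1, the transporter that loads cholesterol onto apolipoprotein A-I and a target of LXR, rose. It was at 53.6 and 70.8 FPKM in the 24 h controls and at 54.4 and 60.2 FPKM with IL-4, against 22.9, 27.7 and 38.8 FPKM early. Every late library was above every early one, and the log2 difference was 1.01 (SE 0.15, adjusted p = 0.00169). The rise was 0.58 within replicate 1 and 1.43 within replicate 2, and these differed from each other (adjusted p = 0.000713). Without any 1 of the 5 replicate 2 libraries, the difference was 0.86 to 0.97 and thus under the 2-fold limit, as it was against 1 h alone (0.95). The list of LXR targets and lipid efflux genes did not move as one. Of 15 members, Abca1 alone was called (0.139% of all loci higher). By adjusted p 5 were higher and 4 lower (11.4% and 17.6% of all loci), and the median was 0.10. The ubiquitin ligase gene Mylip was higher by 0.59 (adjusted p = 0.0232), the phospholipid transfer protein Pltp by 0.71 (adjusted p = 0.0355) and the sterol exporter Abcg1 by 0.27 (adjusted p = 0.0111). The sterol carrier Npc2 (-0.58), the lipoprotein receptor Scarb1 (-0.44), the SREBP1 gene Srebf1 (-0.38) and the acyltransferase Lpcat3 (-0.29) were lower by adjusted p. Apoe did not pass (0.12, adjusted p = 0.324).

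Of the 15 genes that rose, 5 had no overlap over all 10 libraries, and Abca1 was one of them. Thbs1, the matrix glycoprotein thrombospondin, was at 65.1 and 30.2 FPKM in the 24 h controls and at 74.5 and 33.1 FPKM with IL-4, against 13.3, 16.6 and 25.8 FPKM early, a log2 difference of 1.42 (SE 0.26, adjusted p = 0.00456). Its rise was larger in replicate 1 (2.17) than in replicate 2 (0.67, adjusted p of the difference 0.000718), and Thbs1 was not called against 0 h alone (adjusted p = 0.154). Entpd1, the CD39 ectoenzyme that breaks down extracellular ATP, was at 72.7 and 46.4 FPKM and at 75.3 and 42.9 FPKM late, against 20.0, 26.4 and 39.3 FPKM early (1.06, SE 0.06, adjusted p = 1.11e-05). Trf, which encodes the iron carrier transferrin, was at 283 and 272 FPKM and at 301 and 228 FPKM late, against 104, 127 and 171 FPKM early (1.06, SE 0.09, adjusted p = 7.67e-05). The adhesion molecule Pecam1 was at 3.35 and 6.95 FPKM and at 4.27 and 5.38 FPKM late, against 1.5, 1.75 and 2.22 FPKM early (1.06, SE 0.15, adjusted p = 0.00122). Entpd1, Trf and Pecam1 were each close to the 2-fold limit. Within replicate 1 alone Trf (0.90) and Pecam1 (0.67) were under it, as they were without the 24 h control of replicate 2 (0.97 and 0.91). Trf shares 59.4% of its 50-base words with the overlapping locus Gm20425.

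Atp6v0d2, a subunit of the proton pump of lysosomes that also takes part in macrophage fusion, rose mainly in replicate 1. It was at 120 and 9.25 FPKM in the 24 h controls and at 114 and 9.91 FPKM with IL-4, against 6.34, 14.9 and 33.6 FPKM early. The log2 difference was 1.2 (SE 0.27, adjusted p = 0.0107), with 1.99 within replicate 1 and 0.41 within replicate 2 (adjusted p of the difference 0.000233), and without the 24 h control of replicate 1 it was just under 1 and no longer called. Against 0 h alone Atp6v0d2 was not called either (adjusted p = 0.142). No other of the 24 lysosome genes was called, and the median of that list was -0.05. A few further genes that rose are named here because of their values, outside the rule by which genes were chosen. Slc40a1, the iron exporter ferroportin, was at 178 and 35.1 FPKM and at 167 and 24.1 FPKM late, against 7.16, 26.6 and 64.6 FPKM early, and rose by 1.68 (SE 0.12, adjusted p = 6.49e-05), by 1.59 within replicate 1 and 1.78 within replicate 2. Gclm, a subunit of the enzyme that makes glutathione, rose by 1.32, the catalase gene Cat by 1.18, the carbonyl reductase Cbr3 by 1.04 and the glutathione transferase Gsta3 by 1.17. For Gsta3 the rise was 2.21 within replicate 1 and 0.13 within replicate 2.

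Cfb and C3 were the called members among 18 scavenger receptor and complement genes (0.732% of all loci lower). By adjusted p 4 members of that list were higher and 3 lower (11.4% and 17.6% of all loci), and its median was -0.10. Cfb, the serine protease factor B of the alternative complement pathway, was at 3.06 and 71.8 FPKM in the 24 h controls and at 3.25 and 93.3 FPKM with IL-4, against 15.2 to 36.0 FPKM in early replicate 1 and 411 to 431 FPKM in early replicate 2. It fell by 2.41 (SE 0.19, adjusted p = 7e-05). Cfb shares 73.0% of its 50-base words with the read-through locus Gm20547. C3, the central complement component, was at 26.7 and 58.4 FPKM and at 30.9 and 69.0 FPKM late, against 52.1, 157 and 251 FPKM early (-1.5, SE 0.16, adjusted p = 0.000327). Saa3, an acute-phase serum amyloid and outside the rule for named genes, had the largest decrease of the 79, from 106, 1201 and 2367 FPKM early to 53.5 and 202 FPKM in the late controls and 32.7 and 261 FPKM with IL-4 (-2.61, SE 0.31, adjusted p = 0.000498). The late libraries of replicate 2 were above the lowest early libraries of replicate 1 for Cfb, C3 and Saa3, while within each number the late libraries were lower. Hp, the haemoglobin scavenger haptoglobin, had late values of 6.17 and 4.83 FPKM and of 6.06 and 6.03 FPKM, below all early ones at 9.90, 20.4 and 29.5 FPKM (-1.53, SE 0.23, adjusted p = 0.00169). The fall of Hp was -0.85 within replicate 1 and -2.20 within replicate 2 (adjusted p of the difference 0.000157).

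Of 18 inflammatory mediators measured, 3 were called lower (0.732% of all loci) and 8 were lower by adjusted p (17.6%), while 1 was higher (11.4%) and the median was -0.51. Without the 1 h control of replicate 1 or the 24 h IL-4 library of replicate 1, 5 or 6 were called. Clec4e, the receptor Mincle for mycobacterial glycolipid, was at 13.4 and 12.7 FPKM in the late controls and at 14.1 and 14.5 FPKM with IL-4, against 31.0, 35.9 and 38.4 FPKM early. The late and early libraries lay far apart and the change was even, with -1.29 within each replicate (SE 0.07, adjusted p = 1.11e-05). The chemokine Ccl4 was at 26.1 and 64.9 FPKM and at 27.6 and 78.8 FPKM late, against 46.5, 149 and 310 FPKM early (-1.47, SE 0.17, adjusted p = 0.000476). The monocyte chemokine Ccl7 was at 0.864 and 5.36 FPKM and at 0.904 and 15.7 FPKM late, against 1.04, 37.8 and 184 FPKM early (-1.87, SE 0.55, adjusted p = 0.0298). Its change was -0.46 within replicate 1 and -3.29 within replicate 2, and the call was lost without the replicate 2 library of the 0 h control (adjusted p = 0.0534), the 1 h control (0.0595), 24 h IL-4 (0.0778) or the 24 h control (0.0747). Of 21 immediate early genes, Egr1 alone was called (-1.18, SE 0.32, adjusted p = 0.0215), at 0.809 and 1.01 FPKM and at 0.932 and 2.49 FPKM late against 1.01, 4.74 and 13.0 FPKM early. The call was lost without 24 h IL-4 replicate 2 (adjusted p = 0.059) or the 24 h control of replicate 2 (0.0514). Egr1 changed by -0.36 within replicate 1 and -1.99 within replicate 2, and neither it (adjusted p = 0.176) nor Ccl7 (0.18) was called against 0 h alone, nor Ccl7 against 1 h alone (0.0665).

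The other largest falls without overlap were in genes of varied function. Irg1, which makes the antimicrobial metabolite itaconate, was at 3.08 and 1.25 FPKM in the 24 h controls and at 2.58 and 4.37 FPKM with IL-4, against 5.17, 15.5 and 25.9 FPKM early (-1.96, SE 0.35, adjusted p = 0.00394). Slpi, a secreted protease inhibitor, was at 12.0 and 3.61 FPKM and at 10.6 and 3.54 FPKM late, against 15.3, 25.2 and 33.8 FPKM early (-1.75, SE 0.36, adjusted p = 0.00748). Gpr84, a receptor for medium-chain fatty acids, was at 0.634 and 1.16 FPKM and at 1.21 and 1.59 FPKM late, against 3.71, 5.91 and 6.71 FPKM early (-1.59, SE 0.14, adjusted p = 0.000105). In these genes every late library was below every early library, although Slpi kept a higher late level in replicate 1 than in replicate 2. The carbonyl reductase Cbr2 was at 5.70 and 12.4 FPKM and at 7.17 and 11.2 FPKM late, against 24.9, 29.5 and 29.9 FPKM early (-1.60, SE 0.13, adjusted p = 7e-05). The neuropeptide Npy was at 47.0 and 48.9 FPKM and at 45.2 and 43.6 FPKM late, against 78.4, 152 and 224 FPKM early (-1.52, SE 0.23, adjusted p = 0.00166). Its late libraries were alike while the early ones were not. Ly6c2, a marker of inflammatory monocytes, fell from 49.7, 90.4 and 130 FPKM to 26.6 and 25.4 FPKM in the late controls and 37.8 and 29.7 FPKM with IL-4 (-1.43, SE 0.25, adjusted p = 0.00352), and it shares 14.4% of its 50-base words with other genes, Ly6c1 among them. Several of these falls were larger in replicate 2. Slpi changed by -0.62 within replicate 1 and -2.87 within replicate 2 (adjusted p of the difference 4.25e-06), Npy by -0.82 and -2.23 (3.85e-06), Ly6c2 by -0.68 and -2.18 (0.000113) and Irg1 by -1.08 and -2.84 (0.0103). Against the 0 h libraries alone, Irg1 (adjusted p = 0.0779), Slpi (0.0994), Npy (0.0576) and Ly6c2 (0.0911) were not called.

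Cxcl9, an interferon-gamma-induced chemokine, was at 0.0758 and 0.0308 FPKM in the late controls and at 0.0892 and 0.165 FPKM with IL-4, against 0.306, 2.80 and 5.83 FPKM early (-1.5, SE 0.34, adjusted p = 0.011). All 4 late values were below the lowest early one. Cxcl9 reached 1 FPKM only in the early libraries of replicate 2 (4.86 to 5.83 FPKM), with early replicate 1 at 0.306 to 0.753 FPKM. It thus passed the filter through its high early group alone, and the lack of overlap is no separate support. Cxcl9 changed by -0.46 within replicate 1 and -2.55 within replicate 2 (adjusted p of the difference 1.76e-05), and it was not called against 0 h alone (adjusted p = 0.101). Spp1, the secreted phosphoprotein osteopontin, was at 432 and 497 FPKM and at 458 and 568 FPKM late, against 911, 1086 and 1247 FPKM early (-1.14, SE 0.06, adjusted p = 1.11e-05). The high-affinity IgG receptor Fcgr1, the called one among 14 macrophage markers, was at 54.0 and 223 FPKM and at 58.2 and 276 FPKM late, against 104, 313 and 516 FPKM early (-1.02, SE 0.10, adjusted p = 0.000208). It was under the 2-fold limit without the 0 h control of replicate 1 (-0.95), the 24 h control of replicate 1 (-0.998) or that of replicate 2 (-0.97). The same held against 1 h alone (-0.93) and after quantile normalization (-0.94). Spp1 levels were close to each other within each period in both replicates, whereas those of Fcgr1 differed between the replicates at every time.

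The cell-cycle genes went opposite ways in the replicates. Of 30 mitosis genes none was called for time and 3 were higher by adjusted p, a share near that of all loci (11.4%). These were Ube2c (0.84, adjusted p = 0.0277), Cdc20 (0.64, 0.0343) and Cenpa (0.64, 0.0383), which act in the anaphase-promoting complex and at centromeres. Within replicate 1 the change was below 0 in 27 of 30, with a median of -0.31, and within replicate 2 it was above 0 in all 30, with a median of 1.02. A test of the difference between the replicates' changes, added after the data were seen, called 25 of the 30 (2.69% of all loci in that direction). The same test called 482 of 10798 loci in either direction (4.46%), 191 of them in the other one (1.77%). Its p-values, here and beside single genes, measure the scatter among libraries of a replicate number. They do not measure variation between cultures. The summed level of the list was 182 to 212 FPKM early and 152 to 169 FPKM late in replicate 1, and 97.5 to 111 FPKM early and 250 FPKM late in replicate 2. Cdca3, a trigger of mitotic entry, was at 7.19 and 9.65 FPKM in the 24 h controls and at 7.75 and 12.9 FPKM with IL-4, against 4.66, 8.05 and 11.3 FPKM early, and its groups overlapped. Its log2 difference was 0.17 (SE 0.22, adjusted p = 0.575), with -0.42 within replicate 1 and 0.77 within replicate 2 (difference 1.18, adjusted p = 0.00295). The proliferation marker Mki67 changed by -0.30 within replicate 1 and by 1.33 within replicate 2 (adjusted p of the difference 1.28e-06).

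Genes of DNA replication were split between the replicates as well. Of 28 measured, none was called and 8 were lower by adjusted p (17.6% of all loci), with a median of -0.38, which was -0.82 within replicate 1 and 0.09 within replicate 2. Cdt1, which loads the replicative helicase, was at 8.42 and 11.8 FPKM in the 24 h controls and at 9.76 and 12.2 FPKM with IL-4, below the early values of 15.9, 18.7 and 21.2 FPKM (-0.76, SE 0.10, adjusted p = 0.000679). It fell in both replicates (-0.89 and -0.62). The helicase subunit Mcm2 was at 4.75 and 9.70 FPKM and at 4.62 and 10.2 FPKM late, against 10.6, 11.7 and 12.5 FPKM early (-0.67, adjusted p = 0.0182), with -1.2 within replicate 1 and -0.14 within replicate 2. The replication clamp Pcna fell more in replicate 2, at -0.16 within replicate 1 and -0.98 within replicate 2. Over the list, 28 genes were below 0 within replicate 1, while 8 were below 0 and 20 above it within replicate 2. As lists, mitosis and replication genes thus had no single direction with time that both replicates shared.

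**Figure D2:**
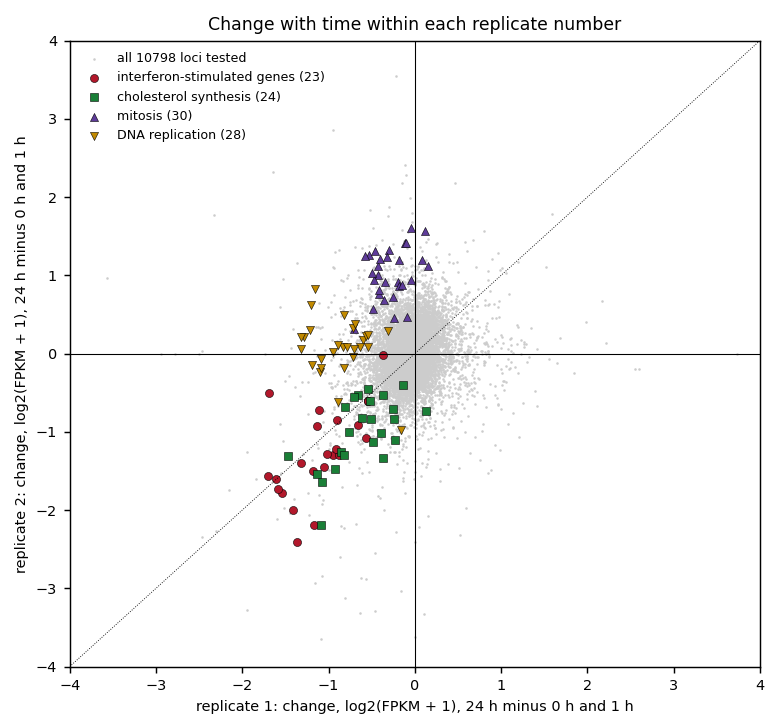
Change in log2(FPKM + 1) from early to 24 h within replicate 1 (horizontal) and within replicate 2 (vertical) for 10798 loci in grey, with ISGs as red circles, cholesterol genes as green squares, mitosis genes as purple triangles and DNA replication genes in gold. ISGs and cholesterol genes lie below 0 on both axes in nearly all cases, while mitosis genes lie above 0 in replicate 2 and mostly below 0 in replicate 1; 8 loci lie outside the axes.

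The remaining lists held few or no called genes. None of 16 IL-4 and STAT6 targets was called over the 4 late libraries together, and the largest differences in that list were in Ccl22 (0.95, adjusted p = 0.0108), a chemokine for type 2 T cells, and Dcstamp (0.77), which takes part in macrophage fusion. Ccl22 was at 2.19 and 3.13 FPKM in the 24 h controls and at 6.63 and 5.6 FPKM with IL-4, against 1.29, 1.69 and 1.79 FPKM early. It was called in the IL-4 comparison (1.42, adjusted p = 0.0435) but not in the controls (0.48, adjusted p = 0.108), and the difference between its time changes with and without IL-4 did not pass over all loci (0.88, unadjusted p = 0.00584 in limma, adjusted p = 1). Without the 24 h control of replicate 1 it was called over both treatments (1.22, adjusted p = 0.00132), as it was without that of replicate 2 (1.06, adjusted p = 0.0182). Of 17 genes of the integrated stress response 9 were lower and 2 higher by adjusted p (17.6% and 11.4% of all loci). The amino acid synthesis genes Asns and Mthfd2 were at -0.64 each, Trib3 at -0.82 and the cystine transporter Slc7a11 at 0.71. Slc7a11 changed by 1.29 within replicate 1 and 0.12 within replicate 2 (adjusted p of the difference 0.000398). Glycolysis and hypoxia genes had a median of 0.03 and none called, with Vegfa, the endothelial growth factor, higher by 0.74 (adjusted p = 0.000285). Of 18 ribosome biogenesis genes 8 were lower by adjusted p (17.6% of all loci), at a median of -0.22. None of 16 clock genes, 14 p53 targets, 9 MHC class II genes and 12 receptor and growth factor genes was called.

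**Figure D3:**
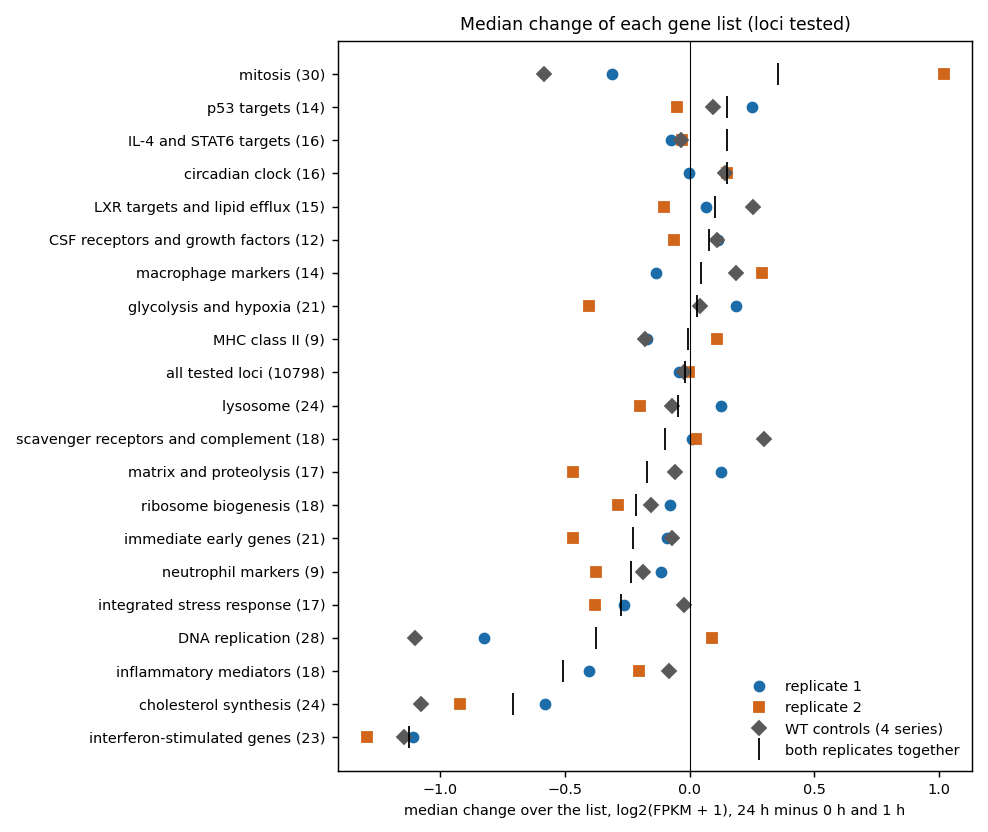
Median change in log2(FPKM + 1) from early to 24 h of each gene list with at least 5 tested members, within Stat6KO replicate 1, within Stat6KO replicate 2, over both together, and in WT controls. ISGs lie at -1.11, -1.30, -1.13 and -1.15 in that order, and mitosis genes at -0.31, 1.02, 0.36 and -0.58.

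The libraries at 3 h and 6 h place the changes in time. They were set against the same 6 early libraries, so the values below share those with the 24 h comparison. At 3 h, 2 loci were called (0.0185%), both higher: Il1b, the inflammatory cytokine interleukin-1 beta (1.44, adjusted p = 0.0127), and Thbs1 (1.33, adjusted p = 0.0132). Neither was called at 3 h without the 3 h control or the 3 h IL-4 library of replicate 1. At 6 h, 3 were called (0.0278%), with Thbs1 at 1.37 and Il1b at 1.28 higher (adjusted p = 0.00507 each) and Hp lower (-1.07, adjusted p = 0.0113). Thbs1 was therefore above its early level at each later time, whereas Il1b at 24 h did not pass (0.40, adjusted p = 0.245). The median ISG difference was -0.07 at 3 h and -0.43 at 6 h, when 8 of 23 were lower by adjusted p (4.08% of all loci), before -1.13 at 24 h. The cholesterol genes had a median of 0.01 at 3 h and -0.05 at 6 h, with none lower by adjusted p at 6 h, before -0.71 at 24 h. The 15 genes higher at 24 h had a median of 0.13 at 3 h and 0.33 at 6 h, and the 79 lower ones -0.16 and -0.52.

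The change with time was also looked at without IL-4 and with it. In the controls alone, 10 loci were higher (0.0926%) and 67 lower (0.62%, together 0.713%), and with IL-4 alone, where 2 late libraries faced 2 early ones, 6 were higher (0.0556%) and 16 lower (0.148%, together 0.204%). Of the 94 loci, 65 were called in the controls and 20 with IL-4, and both comparisons are parts of the one that chose them. These counts depended on single libraries. The 77 control calls became 2 without replicate 2 of the 1 h or of the 24 h control, 45 without replicate 1 of the 0 h control and 35 without replicate 1 of the 1 h control, and the 22 calls with IL-4 became 1 to 6 without any 1 of the 10 libraries. The median difference of the 15 higher genes was 1.22 in controls and 1.03 with IL-4, and that of the 79 lower genes was -1.52 and -1.21. In the control comparison 15 of 23 ISGs and 7 of 24 cholesterol genes were called lower, and with IL-4 4 and 0. In the test of the difference between the time changes with and without IL-4, 1 locus passed (0.00926%), the small nucleolar RNA Snora65, and 60 loci had an unadjusted p under 0.05. Snora65 was at 121 and 110 FPKM in the 1 h IL-4 libraries and listed at 0 in the other 8.

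The same time span in WT controls gave 68 higher and 142 lower loci of 10878 tested (0.625% and 1.31%, together 1.93%). The WT change is a difference between WT libraries alone. Its fit also held the Stat6KO control libraries of these times, which entered the 1 FPKM filter and the spread behind the p-values. The WT calls are therefore not fully separate from those in Stat6KO. All 15 genes that rose in Stat6KO macrophages were called higher in WT (22.1% of the 68), and 59 of the 79 that fell were called lower (74.7% of these and 41.5% of the 142). Of the 94, 93 had the same sign in WT. Ly6e, chosen after its values were seen, was the one that did not, at -1.23 in Stat6KO and 0.17 with an SE of 1.37 in WT. It is listed at 0 in 1 of the 12 WT control libraries, the 0 h control of replicate 1, and lies between 433 and 1569 FPKM in the others. A 0 in such a table can be a failed estimate. In WT the median change was 1.36 for the 15 and -1.31 for the 79. The ISG list had a median of -1.15 in WT, with 14 of 23 called lower (1.31% of all loci). Isg15 changed by -1.60, Ifit2 by -1.73 and Mx1 by -1.53 there.

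Among the cholesterol genes, 13 of 24 were called lower in WT (1.31% of all loci) and all 24 were lower by adjusted p (21% of all loci). Their median was -1.08, and 23 of the 24 fell further than in the Stat6KO controls. Idi1 changed by -2.04 in WT, Sqle by -1.83 and Insig1 by -1.5. DNA replication genes were called lower in 17 of 28 cases in WT (1.31% of all loci), with a median of -1.10. All 28 were lower by adjusted p (21% of all loci). The mitosis genes had a median of -0.58, made up of -0.05, 0.11, -1.02 and -1.24 in the 4 WT replicates, so they differed between WT replicates too. Among the rising genes, Thbs1 changed by 2.70, Slc40a1 by 2.39, Pecam1 by 1.63, Abca1 by 1.33, Trf by 1.17 and Entpd1 by 1.06.

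A test of the difference between the genotypes' time changes called no locus at 2-fold (0% of 10878) in limma, and 1034 loci had an unadjusted p under 0.05. By adjusted p alone 1 locus passed (adjusted p = 0.031), with a Stat6KO change below that of WT. It was 1 of the 14 macrophage markers. None of the 94 loci passed this test by adjusted p. With 2 Stat6KO and 4 WT libraries per group the intervals are wide, and a p above the threshold does not show that the genotypes changed alike. Of the genes that fell in Stat6KO, 20 were not called in WT, among them Clec4e at -0.37 (adjusted p = 0.0211) and Cxcl9 at -0.47 (adjusted p = 0.157), and for neither of these did the difference pass (-1.05, adjusted p = 0.081, and -1.16, adjusted p = 0.419). Without the Stat6KO 24 h control of replicate 1, 255 loci were called in this test, and without that of replicate 2, 25 were, each with 1 Stat6KO library left at 24 h that is assumed to vary like the others.

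**Figure D4:**
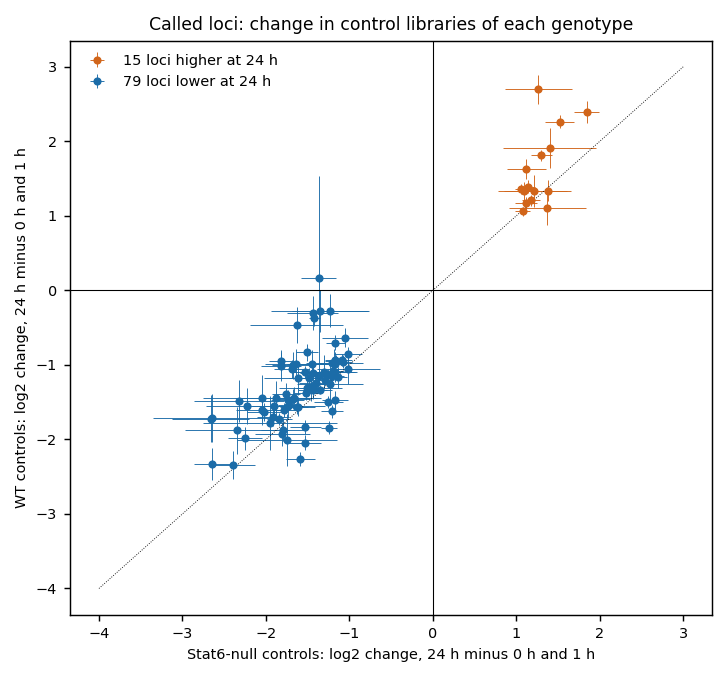
Change in log2(FPKM + 1) from 0 h and 1 h controls to 24 h control in Stat6KO (horizontal) and WT (vertical) macrophages for the 94 loci called in Stat6KO, with bars of 1 standard error. All 15 genes that rose and 78 of the 79 that fell had the same sign in both genotypes.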

How the data were processed

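Poly-A RNA of each library was sequenced, and the authors mapped reads to mm10 with TopHat2 2.0.7 and computed FPKM with Cufflinks 2.0.2, per the submitters' processing notes. The gene annotation was not given in the sources used here. The authors deposited 1 FPKM table of 23847 loci per sample, with no read counts, so absolute depth is unknown. Because FPKM is scaled within a library, a change in abundant genes shifts all others.

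Values were set to log2(FPKM + 1), and loci that reached 1 FPKM in any library were fitted in limma 3.58.1 (R 4.3.3) with an intensity trend and the replicate number as a factor. A call needed a two-sided Benjamini-Hochberg adjusted p under 0.05 and a 2-fold difference. Relative depth came from the steps between low FPKM values. Groups were read from the labels. On simulated data (10798 loci, 200 changed) the time comparison recovered 99% of changes of log2 1.5 and 100% of those of 2.5. There each change was the same in both replicates and the libraries varied independently. In the data the changes often differed between the replicates, so these rates check the fit and do not carry over to it. Figures were drawn with matplotlib 3.10.9.

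The named genes were Stat6, Abca1, Cdca3, the 12 largest called changes in each direction without overlap, and per list up to 5 called members or the 2 with the largest difference. The members and gene lists were chosen with earlier results of these data known. Same-numbered Stat6KO libraries deviated together (r = 0.427 to 0.900 between groups), and WT control libraries less so (-0.132 to 0.498). Alternatives were another pseudocount, filter, scaling and trend, no replicate factor, each replicate alone, and leaving out each library. A few genes are not reported here.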

Additional observations from a re-analysis of the deposited data

Results flagged for a closer look

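A single library stood apart from the rest of its period in 8 of 124 sets of samples looked at. The limit used gives about 1 in 20 for independent values from a single population. These sets pooled replicates that stood apart and libraries with and without IL-4, so that rate does not hold for them. Among the 6 early libraries, Cxcl10 was at 73.6 FPKM in 1 h IL-4 replicate 2 (next highest 30.1), Thbs1 at 25.8 FPKM in the 0 h control of replicate 2 (next 16.9) and Cbr2 at 24.9 FPKM in 1 h IL-4 replicate 1 (next lowest 28.3). Among the 4 libraries at 24 h, 3 genes stood apart in the control of replicate 2, with Hp at 4.83 FPKM (next lowest 6.03), the MHC class II chaperone gene H2-Oa at 0.570 FPKM (next highest 0.421) and the clock output gene Dbp at 13.97 FPKM (next highest 11.7). In 24 h IL-4 replicate 2, Idi1 was at 4.58 FPKM (next 2.53) and Egr1 at 2.49 FPKM (next 1.01).

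The time changes with and without IL-4 differed at Snora65, by -6.86 on the log2 scale (limma, adjusted p = 5.87e-06). The locus was at 121 and 110 FPKM in the 1 h IL-4 libraries and listed at 0 in the other 8 of the 10, and it was at 266 FPKM in 3 h IL-4 replicate 2.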

How the results depend on the processing

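Leaving the replicate block out took the time comparison from 94 called loci to 22, the control comparison from 77 to 1, IL-4 alone from 22 to 2, 3 h from 2 to 0 and 6 h from 3 to 1, and of 62 named genes 13 lost their call and the other 49 did not change side. A pseudocount of 0.1 FPKM gave 165, 37 with IL-4 alone, 8 at 6 h, 381 in WT and 1 for the genotype difference, which was also 1 after quantile normalization. IL-4 alone gave 2 loci with no filter on low values and 14 with no trend. Among the named genes, Ccl7 lost its call with no filter (adjusted p = 0.062) and Fcgr1 after quantile normalization. With the pseudocount of 0.1 FPKM 5 named genes gained a call and 0 lost it. Ccl22 (1.26), Trib3 (-1.31) and Slc7a11 (1.07) were among those that gained one. Within replicate 1 alone 144 loci were called, within replicate 2 alone 292, and by adjusted p alone 3131. Median-ratio scaling (94), quantile normalization (86), no filter (91), all 18 libraries in 1 fit (101), 0 h alone (86) or 1 h alone (84) as the early group, and 96 after leaving out loci listed at 0 in one library and at 10 FPKM or more in another, changed the count by less than 1.5 times. Where counts moved, the cause was not tested.

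Leaving out 1 library at a time gave 84 to 107 loci for time, 2 to 82 for controls, 1 to 6 for IL-4 alone, 1 to 3 for time by IL-4, 0 to 3 at 3 h, 2 to 4 at 6 h, 192 to 230 in WT and 0 to 255 for the genotype difference.

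Signs changed only in named genes that had not been called. Within replicate 1 alone Plk2 was at 0.0769, Epor at -0.29, Siglech at -0.21, Cdca3 at -0.42, Ciita at -0.26, Per3 at -0.0167 and Ccnb2 at -0.0390, and within replicate 2 alone Cd79b was at 0.66. Against 0 h alone Cd79b was at 0.0145 and Stat6 at -0.0936, and against 1 h alone Epor was at -0.0307 and Siglech at -0.0443. Leaving out 1 library turned the sign of Cd79b (from -0.289 to 0.207 over the 10 fits), Epor (-0.0924 to 0.118), Siglech (-0.027 to 0.127) and Cdca3 (-0.0352 to 0.330). Of the 62 named genes, 10 lost their call against 0 h alone, 3 against 1 h alone and 11 within replicate 1 alone, as given beside them. The unknown absolute depth and 2 replicate numbers limit every comparison.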
